A study of Rattus norvegicus with 22 samples.

Results

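Contused spinal cord of rats that had received both tempol and buthionine sulfoximine (BSO) was compared with contused cord of rats that had received neither. The comparison takes 5 of the 22 Affymetrix arrays of the series, namely the 3 arrays titled as tempol with BSO and the 2 arrays titled as contusion, and all 31042 probe sets that are not array controls. All 5 cords had been injured at thoracic level 10 by a 10 g weight with a 2.5 mm tip falling 25 mm, and gene expression was read 24 h after the injury. The treated rats were injected intraperitoneally with BSO at 150 mg/kg 24 h before the contusion and with tempol at 275 mg/kg 20 min after it. The contusion rats carried the same injury, and the labels name no vehicle injection for them. The other 17 arrays were used for the spread between arrays and for side comparisons: 3 with BSO alone and 3 with tempol alone at the same doses and times, 2 with clenbuterol, 3 with X-rays, 3 of laminectomized cord without contusion and 3 of normal cord. The labels give no strain, sex or age, and they do not say that each array stands for a separate animal. The p-values therefore reflect only how far these arrays vary, which may be technical.

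Tempol is a nitroxide that passes into cells and removes superoxide in the manner of superoxide dismutase. BSO blocks glutamate-cysteine ligase, the enzyme that makes the first and rate-limiting step of glutathione synthesis, and so lowers the tissue's main thiol antioxidant. Cells that lose glutathione or meet electrophiles commonly answer through the transcription factor NRF2, which raises genes for glutathione synthesis, quinone reduction and heme breakdown. A contusion of the cord is followed within hours by bleeding, chemokine release, entry of neutrophils and then macrophages, and loss of neurons and myelin.

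Each probe set has a linear signal, and all arrays share a mean signal of 250 after the lowest and highest 2% are trimmed off. Differences below are tempol plus BSO minus contusion in log2 signal, followed by their standard error. A difference of 1 is a 2-fold higher signal in the tempol plus BSO arrays. The arrays carried the transcripts of spinal cord: the signal of Mbp, the myelin basic protein, was 38680, 30771 and 24373 in the 3 tempol plus BSO arrays, against 22148 and 40004 in the 2 contusion arrays. The correlations of log2 signal among the tempol plus BSO arrays were 0.738, 0.710 and 0.755, below the 0.785 between the contusion arrays. Tempol plus BSO 1 had the lowest median correlation with other arrays among the 16 contused arrays (0.725) and the highest log2 ratio of 3' to 5' actin signal among them (1.06). Tempol plus BSO 3 and contusion 1 both belong to a set of 5 arrays from 5 groups with weak hybridization spikes (10.90 to 11.22, against 11.92 to 14.18 in the other 17 arrays, mean log2 signal). The pairs within that set correlated with a median of 0.809, against 0.753 for pairs of the same group, and tempol plus BSO 3 resembled contusion 1 (0.832) more than either of its own group. The labels do not say what these arrays share in handling. With the weak-spike arrays as a block, the comparison with contusion gave 0 probe sets past the adjusted threshold in limma and 1284 at an unadjusted p under 0.05, and some values within and outside the set are given below.

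No gene passed the test between tempol plus BSO and contusion. Of 31042 probe sets 0 passed an adjusted p of 0.05 in limma (0% called), with Benjamini-Hochberg adjustment, and 1237 had an unadjusted p under 0.05, of which 707 were higher and 530 lower with tempol plus BSO. An even spread of p-values would have put 1552.1 probe sets below 0.05. Leaving out tempol plus BSO 3 gave 1889 such probe sets and still 0 that passed, while leaving out contusion 1 gave 1 that passed. The smallest adjusted p was 0.150. It belonged to a probe set without a gene symbol, with signals of 167, 218 and 135 in the tempol plus BSO arrays against 21.3 and 15.3 in the contusion arrays, and a difference of 3.23 ± 0.51. The other 17 arrays lay between 63.9 and 415.5 there, so it was the contusion arrays that stood apart.

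**Figure D1:**
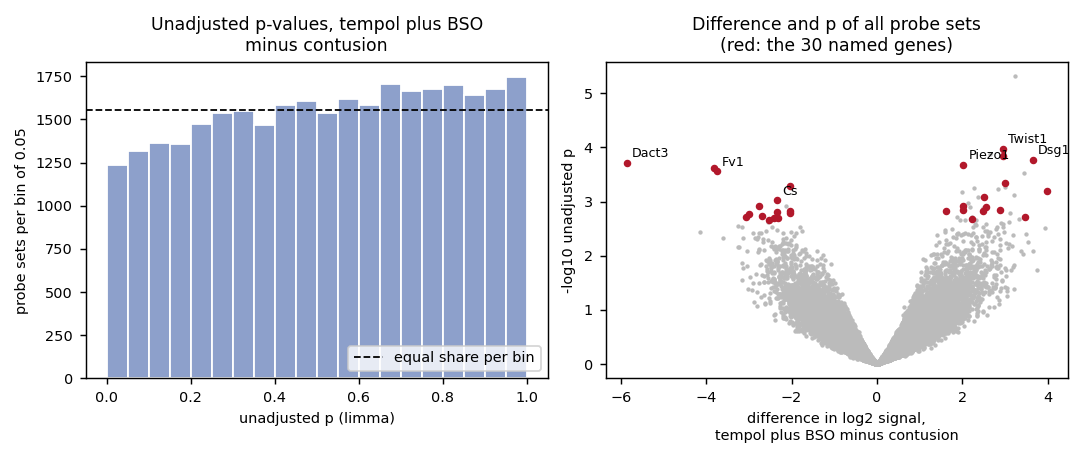
Left, number of probe sets per bin of 0.05 of the unadjusted limma p-value for tempol plus BSO minus contusion, with a dashed line at the 1552.1 that an even spread would give; the lowest bin holds 1237. Right, the difference in log2 signal of each of the 31042 probe sets (x axis) against the negative log10 of its unadjusted p (y axis), with the 15 genes of smallest p in each direction in red; none passed the adjusted threshold.

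The precision of 3 arrays against 2 sets what could be seen. The median standard error of a difference was 0.76, and the median 95% interval reached 1.59 to either side, a 3.00-fold ratio. Large estimated differences were nonetheless common: 5973 probe sets (19.2%) differed by more than 1. A p that misses the threshold therefore does not show that a gene had the same level in both groups, and for the genes closest to the treatments the intervals are given.

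The genes of glutathione synthesis, whose enzyme BSO blocks, stood at similar signals in the tempol plus BSO arrays and the contusion arrays. Gclc, the catalytic subunit of glutamate-cysteine ligase, had signals of 653, 846 and 795 with tempol plus BSO, against 838 and 613 in contusion. Gclm, its modifier subunit, had 51, 259 and 167 with tempol plus BSO, against 125 and 197 in contusion. The arrays of the 2 groups overlapped for both genes, with differences of 0.09 ± 0.54 (95% interval -1.05 to 1.22) for Gclc and -0.27 ± 0.65 (-1.63 to 1.10) for Gclm. The other Gclc probe set differed by -0.56. Gss, glutathione synthetase, differed by 0.14 ± 0.65. Slc7a11, the cystine importer that feeds glutathione synthesis, had signals of 266, 328 and 174 with tempol plus BSO, against 201 and 303 in contusion. Its difference was 0.01 ± 0.68 (-1.41 to 1.42).

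The enzymes that use glutathione gave a similar picture. Gsr, glutathione reductase, differed by 0.23 ± 0.93. Gpx1, the cytosolic glutathione peroxidase, had 1153, 932 and 1058 with tempol plus BSO against 749 and 889 in contusion, so every tempol plus BSO array lay above both contusion arrays, by 0.36 ± 0.61. Gpx4, which reduces lipid peroxides, differed by 0.50 ± 1.14, with contusion arrays of 40.6 and 356 around all 3 tempol plus BSO arrays (332, 157 and 94.6), and its other probe set differed by -1.20. Among the glutathione S-transferases, which join glutathione to electrophiles, Gstm1 had the smallest p. Its signals were 84.5, 134 and 187 with tempol plus BSO, against 296 and 316 in contusion. The difference was -1.25 ± 0.73 (unadjusted p = 0.102 and adjusted p = 1 in limma). Gstm genes are near copies of each other, and probe sets may share their transcripts. Over the list of glutathione synthesis and use, 39 of 40 genes were measured, none passed the test, 19 were higher and 20 lower, and the median difference was -0.02, against 50.2% of 14217 genes higher and a median of 0.00 over all genes. In 9 of these 39 genes the arrays of the 2 groups did not overlap, against 17.8% of all genes.

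NRF2 targets did not stand out either. Hmox1, heme oxygenase 1, had high signals of 1389, 1809 and 2004 with tempol plus BSO, against 2058 and 1877 in contusion, a difference of -0.20 ± 0.45 (-1.15 to 0.75). Nqo1, the quinone reductase often used as an NRF2 marker, had 960, 809 and 632 with tempol plus BSO, against 1124 and 705 in contusion (-0.17 ± 0.42, interval -1.05 to 0.70). Txnrd1, thioredoxin reductase, differed by -0.07 ± 0.44 and, on its other probe set, by -1.74. Srxn1, sulfiredoxin, differed by 0.52 ± 0.95. Of the 24 NRF2 targets measured 12 were higher and 12 lower, with a median near 0. Ugdh, which makes UDP-glucuronate, was the only 1 of them with an unadjusted p under 0.05. It had 1296, 1468 and 1006 with tempol plus BSO, against 184 and 990 in contusion, a difference of 1.54 ± 0.69, with contusion 1 far below the other 4 arrays.

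Tempol acts on superoxide, and the enzymes that handle superoxide and peroxide had differences smaller than their errors or close to them. Sod1, the cytosolic superoxide dismutase, had signals of 790, 722 and 410 with tempol plus BSO, against 627 and 786 in contusion (-0.19 ± 0.91). Sod2, the mitochondrial one, had 160, 374 and 513 with tempol plus BSO, against 457 and 83.0 in contusion, with overlap, and differed by 0.69 ± 0.78. The extracellular Sod3 differed by -0.38 ± 0.90, and Cat, catalase, by -0.64 ± 0.57 (-1.82 to 0.54). Of 20 superoxide, peroxide and thioredoxin enzymes 9 were higher and 11 lower (median -0.04). Among 11 sources of superoxide and nitric oxide, Ncf1, a cytosolic subunit of the phagocyte NADPH oxidase, had the smallest p: 32, 56 and 146 with tempol plus BSO, against 219 and 433 in contusion. Its 5 arrays did not overlap, and its difference was -2.27 ± 0.95 (unadjusted p = 0.0277, adjusted p = 1 in limma).

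No metal or stress gene passed the test. Mt2A, a metallothionein, had very high signals of 9741, 26802 and 14462 with tempol plus BSO, against 15236 and 12912 in contusion (0.15 ± 1.06). Mt1 differed by -0.60 ± 0.78, and 1 of the 4 genes of the metallothionein list, which holds the zinc exporter Slc30a1, was higher. Hspb1, the small heat shock protein, had 795, 759 and 494 with tempol plus BSO, against 656 and 271 in contusion (0.66 ± 0.54, interval -0.48 to 1.80). Atf3 and Fos, transcription factors of early injury, differed by -0.14 ± 1.05 and 0.00 ± 0.93. Cp, ceruloplasmin, the copper ferroxidase, had 814, 95.7 and 88.3 with tempol plus BSO, against 943 and 1104 in contusion. All 3 tempol plus BSO arrays lay below both contusion arrays, tempol plus BSO 1 only just. Its difference was -2.42 ± 1.01 (unadjusted p = 0.0270, adjusted p = 1 in limma), and of its other 2 probe sets 1 was lower (-1.98) and 1 higher (0.61).

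**Figure D2:**
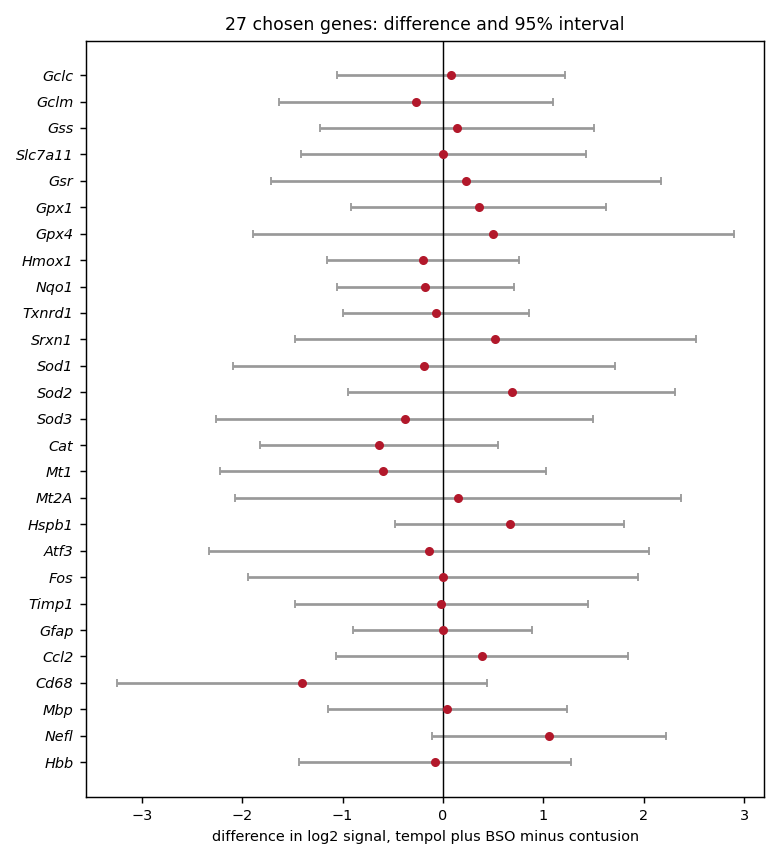
Difference in log2 signal, tempol plus BSO minus contusion (x axis), of 27 chosen redox, stress, lesion and cell marker genes (rows), with 95% intervals from the limma fit. Every interval holds 0; Gclc lies at 0.09, Hmox1 at -0.20, Nqo1 at -0.17, Cd68 at -1.41 and Nefl at 1.06.

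Since no gene passed, the 15 named genes of smallest p in each direction are given as values and not as calls, and the smallest adjusted p among them was 0.924. Twist1, a transcription factor of mesenchymal cells, had signals of 96.8, 69.1 and 73.6 with tempol plus BSO, against 11.7 and 9.0 in contusion. It was the only 1 of the 15 higher genes in which all 3 tempol plus BSO arrays lay above all other arrays of the series, whose highest was 66.0 in tempol 3. The difference was 2.94 ± 0.60, a 7.69-fold ratio at low signal. Against BSO alone the Twist1 difference was 2.02 ± 0.54 (adjusted p = 0.970 in limma), and against tempol alone it was 1.03 ± 0.54 (adjusted p = 0.999 in limma). Its other probe set differed by 1.26 (unadjusted p = 0.289).

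Among the other higher genes, Piezo1, a mechanically gated cation channel, had 386, 384 and 308 with tempol plus BSO, against 129 and 60.8 in contusion, and the other 17 arrays lay between 152.8 and 345.7. Lsm12, an RNA-binding protein, had 182, 184 and 276 with tempol plus BSO, against 18.8 and 39.1 in contusion, with the other 17 arrays between 46.2 and 376.8. Dsg1, a desmosomal cadherin, had 211, 121 and 109 with tempol plus BSO, against 22.9 and 5.5 in contusion. Their differences were 2.01 ± 0.44, 2.95 ± 0.62 and 3.65 ± 0.78. Brca1, a DNA repair protein, had 210, 220 and 71.1 with tempol plus BSO, against 51.3 and 3.5 in contusion (3.47 ± 0.96). Without contusion 2 the Brca1 difference was 1.53, and it was 0.47 within the weak-spike arrays against 5.94 within the others. The other 2 probe sets of Lsm12 differed by 0.42 and -0.42, and those of Dsg1 by -0.18 and 0.57. The rest of the 15 were Slc41a1, Ufl1, Sympk, Plcxd2, Tbc1d8, Bbs1, Zfp593, C5h1orf216, Kcng2 and Adap1, and the 15 differences ran from 1.61 to 3.98. In 13 of the 15 higher genes the contusion mean lay further from the median of the other 17 arrays than the tempol plus BSO mean. In 7 of the 15 both contusion arrays lay below all 17. Of the 15 lower genes the contusion mean was the further one in 6, and both contusion arrays lay above all 17 in 2.

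Among the 15 lower genes, Cs, citrate synthase, the first enzyme of the citric acid cycle, had 44.2, 35.4 and 50 with tempol plus BSO, against 200 and 236 in contusion. All 3 tempol plus BSO arrays lay below every other array, whose lowest was 52.4 in laminectomy 3, and the difference was -2.35 ± 0.60. That Cs probe set is the dimmest of 4, however, and the other 3 differed by -0.99, 0.29 and -0.47. Fv1, a gene that restricts retroviruses in mice, had 80.3, 34.4 and 120 with tempol plus BSO, against 875 and 995 in contusion (-3.75 ± 0.84). With BSO alone its signals were 379, 57.9 and 161, and with tempol alone 1178, 526 and 514. Cdt1, which licenses DNA replication, had 18.2, 21.6 and 37.6 with tempol plus BSO, against 163 and 157 in contusion (-2.70 ± 0.75).

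Dact3 and Dvl1, both of the Wnt pathway, had the largest negative differences of the 30 genes, -5.87 ± 1.27 and -3.82 ± 0.84, and in both 1 contusion array was several times brighter than the other. Dact3 had 10.3, 43.8 and 35.5 with tempol plus BSO, against 283 and 7632 in contusion. Dvl1 had 252, 288 and 172 with tempol plus BSO, against 7274 and 1485 in contusion. Without the brighter contusion array the differences were -3.49 for Dact3 and -2.68 for Dvl1. The other 2 probe sets of each gene differed by 0.25 and 0.26 for Dact3 and by 0.17 and 0.36 for Dvl1. The remaining lower genes were Epn2, Spns1, Fbxo27, Ampd2, Prkab1, Shc2, Enkd1, Lrfn3, Tgm3 and Zer1.

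Other probe sets of the named genes mostly did not repeat the pattern. Of the 15 higher genes 12 had other single-symbol probe sets, 17 in all, and 6 of these 17 were higher. Of the 15 lower genes 7 had others, 12 in all, and 5 of these 12 were lower. Among these 29 probe sets, 1 had an unadjusted p under 0.05 in the direction of the named one, the Cs probe set at -0.99. For Kcng2, a potassium channel subunit, the brightest probe set differed by 1.61, while another differed by -3.60 (unadjusted p = 0.00467 in limma). For Zfp593 the named probe set differed by 2.02, while another differed by -2.42 (unadjusted p = 0.0444 in limma).

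**Figure D3:**
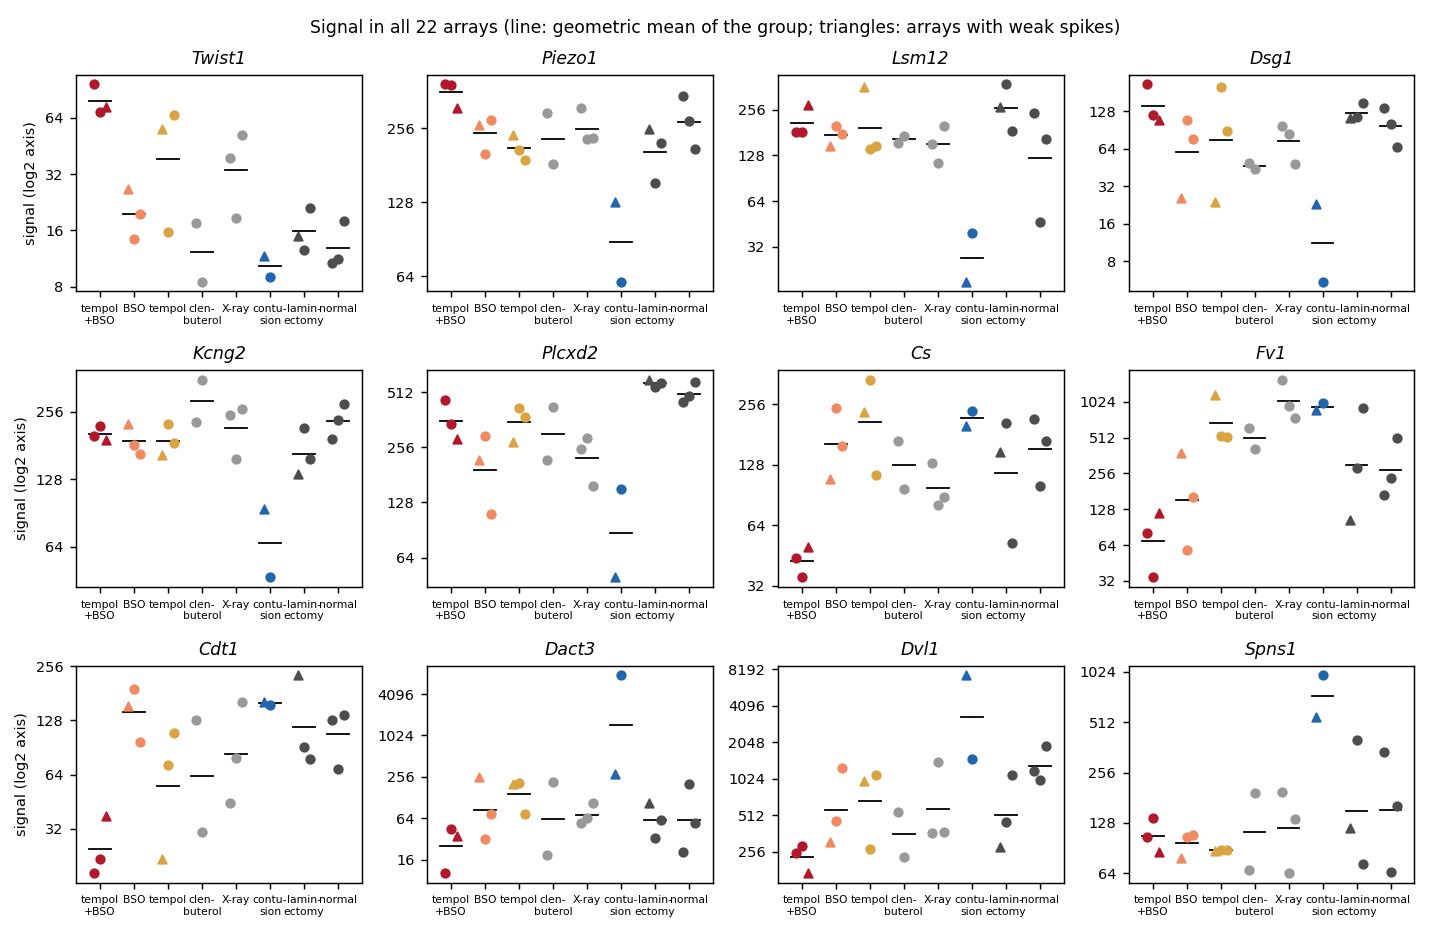
Signal (log2 axis) of 12 of the 30 named genes in all 22 arrays, grouped by treatment, with a line at each group's geometric mean and triangles for the 5 arrays with weak spikes. For Twist1 the 3 tempol plus BSO arrays (69.1 to 96.8) lie above all others and for Cs (35.4 to 50) below all others, while for Piezo1, Lsm12, Dsg1 and Kcng2 the 2 contusion arrays are the low ones.

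No inflammatory or blood cell gene passed the test between tempol plus BSO and contusion. In bulk tissue fewer cells of a type and less RNA per cell cannot be told apart. Of 22 macrophage markers 6 were higher and 16 lower with tempol plus BSO, and the median of -0.30 was among the lowest of the 39 lists. Cd68, a lysosomal protein of phagocytes, had 245, 230 and 116 with tempol plus BSO, against 669 and 365 in contusion, without overlap. Gpnmb and Spp1, genes of lipid-laden macrophages, were lower by 0.72 ± 0.54 and 0.54 ± 0.46 in log2 signal. Probe sets of Cd36 and Fabp4, also on the list, were higher by 0.81 ± 0.80 and 0.18 ± 0.87. Cd68 itself differed by -1.41 ± 0.88 (95% interval -3.25 to 0.44). Mrc1, the mannose receptor of perivascular and repair macrophages, ran the other way, with 214, 398 and 210 with tempol plus BSO, against 154 and 51.1 in contusion (1.56 ± 0.69, unadjusted p = 0.0352, adjusted p = 1 in limma). In 9 of the 22 macrophage genes the arrays did not overlap, 3 of them higher and 6 lower with tempol plus BSO, against 17.8% of all genes. The mean log2 signal of the list overlapped, with 9.43, 9.32 and 8.91 with tempol plus BSO, against 9.42 and 9.31 in contusion. Against the same contusion arrays the macrophage median was -0.45 for BSO alone and -0.49 for tempol alone, and tempol plus BSO differed from BSO alone by 0.22 (14 of 22 higher) and from tempol alone by 0.23 (16 of 22 higher). The macrophage median was -0.39 within the weak-spike arrays and -0.19 within the others, and without tempol plus BSO 3 it was -0.15.

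Microglia markers had a median of -0.10 over 13 genes, and T, B and NK cell markers -0.06 over 15. Leaving out each array in turn put them at -0.21 to 0.09 and at -0.16 to 0.05. Of 10 neutrophil markers 8 were higher with tempol plus BSO (median 0.31), and in 0 of the 10 were the arrays of the 2 groups separate, against 17.8% of all genes. S100a9, a calcium-binding protein of neutrophils, had 1525, 1216 and 892 with tempol plus BSO, against 634 and 1267 in contusion (0.40 ± 0.76). The neutrophil median was -0.02 without contusion 1, 0.04 without tempol plus BSO 1 and 0.52 without tempol plus BSO 3. Of 26 chemokine genes 15 were higher, with a median of 0.19 that came to -0.01 without contusion 1 and 0.00 without tempol plus BSO 3.

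Ccl2, the main attractant of monocytes, had 2875, 4025 and 2284 with tempol plus BSO, against 2240 and 2307 in contusion (0.39 ± 0.70, interval -1.07 to 1.85). Ccl5 and Ccl4, which attract T cells and monocytes, had the largest chemokine differences. Ccl5 had 305, 500 and 140 with tempol plus BSO, against 137 and 31.4 in contusion (2.08 ± 0.83, unadjusted p = 0.0210), and Ccl4 had 404, 716 and 802 with tempol plus BSO, against 462 and 126 in contusion (1.35 ± 0.55, unadjusted p = 0.0247), both with an adjusted p of 1 in limma. Contusion 2 was the lowest of the 5 arrays for both. Tnf, the early cytokine, differed by 1.10 ± 0.56 and Il1b by 1.10 ± 0.80, and over 24 cytokine genes the median was 0.05 (-0.14 without contusion 1, 0.33 without contusion 2). Timp1, the metalloproteinase inhibitor that is strongly present in injured cord, had 10258, 9806 and 4182 with tempol plus BSO, against 5995 and 9571 in contusion (-0.02 ± 0.70).

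Hemoglobin and other red cell genes mark blood in the tissue, although the cords had been flushed with saline. Hbb, beta globin, had 6324, 4842 and 4183 with tempol plus BSO, against 3393 and 8327 in contusion (-0.08 ± 0.65). The mean log2 signal of the 6 red cell genes was 7.63, 7.73 and 7.80 with tempol plus BSO, against 7.98 and 8.10 in contusion. The arrays of the 2 groups did not overlap on this mean, and their difference of -0.32 compares with an SD of 0.25 within groups, pooled over all 8 groups. Taken singly, 0 of the 6 genes had separate arrays, against 17.8% of all genes. Of the other lists, the immediate early, extracellular matrix, myelin and channel lists also had separate means, and the rest overlapped.

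Among the lists of neural cells, neuron markers had the highest median, 0.39 over 26 genes with 19 higher. The neurofilament genes and a presynaptic gene led it. Nefl, the light neurofilament chain, had 2199, 3260 and 1525 with tempol plus BSO, against 1082 and 1047 in contusion. Nefh, the heavy chain, had 6924, 2650 and 2049 with tempol plus BSO, against 797 and 2704 in contusion. Snap25, of the synaptic vesicle fusion machinery, had 5501, 4591 and 1964 with tempol plus BSO, against 870 and 3129 in contusion. The other Nefl probe set differed by 0.46. The arrays did not overlap for Nefl and overlapped for Nefh and Snap25, and the differences were 1.06 ± 0.56, 1.19 ± 0.62 and 1.15 ± 0.62, none with an unadjusted p under 0.05. Tubb3, neuronal tubulin, had 1022, 782 and 795 with tempol plus BSO, against 416 and 485 in contusion (0.94 ± 0.44, unadjusted p = 0.0464, adjusted p = 1 in limma), while its other probe set differed by 0.24.

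Not all neuronal genes lay on that side. Gad2, which makes the inhibitory transmitter GABA, had 23.5, 34.4 and 304 with tempol plus BSO, against 371 and 351 in contusion (-2.53 ± 0.93, unadjusted p = 0.0140, adjusted p = 1 in limma), whereas Gad1, the other GABA-making enzyme, differed by 1.02 ± 0.58. The neuron median depended on contusion 1, the array with the lowest neuron level of all 22. It was 0.05 without contusion 1, 0.75 without contusion 2 and 0.66 without tempol plus BSO 3, and it was 0.47 within the weak-spike arrays and 0.28 within the others. Beside it stand the medians against the same contusion arrays of BSO alone (0.22) and tempol alone (0.24), which share those arrays, and the direct differences of tempol plus BSO minus BSO alone (0.11) and minus tempol alone (0.08). Of 25 channel and receptor genes 15 were higher (median 0.22), but the median was -0.22 without contusion 2 and 0.04 without tempol plus BSO 3. Grin1, the obligatory NMDA receptor subunit, had the smallest p of them (195, 395 and 66.2 with tempol plus BSO, against 49.1 and 28.1 in contusion, a difference of 2.21 ± 0.79), but its other probe set differed by -0.88.

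Glial lists had medians nearer to 0. Gfap, the astrocyte filament protein, had 16678, 11793 and 9347 with tempol plus BSO, against 12101 and 12442 in contusion, with a 95% interval of -0.89 to 0.89 around a difference near 0. Of 15 astrocyte markers 11 were higher (median 0.12), and over 22 reactive astrocyte genes the median was also 0.12. Leaving out each array in turn put the reactive astrocyte median at 0.03 to 0.27 and the astrocyte median at -0.002 to 0.31, the highest without tempol plus BSO 3. Within the weak-spike arrays the astrocyte median was -0.20 and the reactive astrocyte median -0.21. Within the others they were 0.17 and 0.18. Mbp differed by 0.05 ± 0.57 (-1.14 to 1.23), and its other 2 probe sets by -0.59 and -0.39. The mean log2 signal of 18 oligodendrocyte and myelin genes was 9.81, 9.75 and 9.80 with tempol plus BSO, against 9.67 and 9.65 in contusion, a gap of 0.13 without overlap. The SD was 0.03 among the tempol plus BSO arrays and 0.26 when pooled over all 8 groups. The median difference of the list was 0.08, and leaving out each array in turn put it at -0.17 to 0.12. It was 0.25 within the weak-spike arrays and -0.07 within the others. Within the list, Mog and Mobp, myelin proteins, and Ugt8, which makes myelin galactolipids, had lower signals in every tempol plus BSO array than in both contusion arrays (-0.71 ± 0.40, -0.50 ± 0.41 and -0.67 ± 0.40). Another Mobp probe set differed by 0.18 ± 0.64, and the other Ugt8 probe set by -0.54. Mal, a myelin proteolipid, was above both contusion arrays in every one (0.94 ± 0.53). Ermn, an oligodendrocyte cytoskeletal protein, had 519, 568 and 939 with tempol plus BSO, against 557 and 102 in contusion (1.45 ± 0.64, unadjusted p = 0.0364, adjusted p = 1 in limma), but its other 2 probe sets differed by -0.14 and 0.07. Of 10 markers of oligodendrocyte progenitors 7 were higher, and their median of 0.30 was 0.13 without contusion 1 and 0.09 without tempol plus BSO 1.

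Cholesterol synthesis had the highest median of all 39 lists, 0.43, with 13 of 17 genes higher. Fdps, which makes farnesyl pyrophosphate, had 439, 228 and 195 with tempol plus BSO, against 144 and 50.2 in contusion. Insig1, the sterol sensor that restrains the pathway, had 317, 339 and 208 with tempol plus BSO, against 30.9 and 149 in contusion. Neither gene's arrays overlapped, and the differences were 1.66 ± 0.65 and 2.05 ± 0.96 (unadjusted p of 0.0191 and 0.0459, both adjusted to 1 in limma). Cyp51 and Idi1, other enzymes of the pathway, were lower without overlap (-0.53 ± 0.43 and -0.30 ± 0.41), and the other Cyp51 probe set differed by 0.35. Contusion had the lowest mean level of this list of all groups: 8.51, 8.57 and 7.91 with tempol plus BSO, against 7.75 and 7.94 in contusion, with tempol plus BSO 3 below contusion 2. The median was 0.17 without contusion 1 and 0.18 without tempol plus BSO 1, and 0.04 within the weak-spike arrays against 0.26 within the others. For BSO alone and tempol alone, set against the same contusion arrays, it was 0.41 and 0.29, and tempol plus BSO differed from BSO alone by 0.12 and from tempol alone by -0.01.

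**Figure D4:**
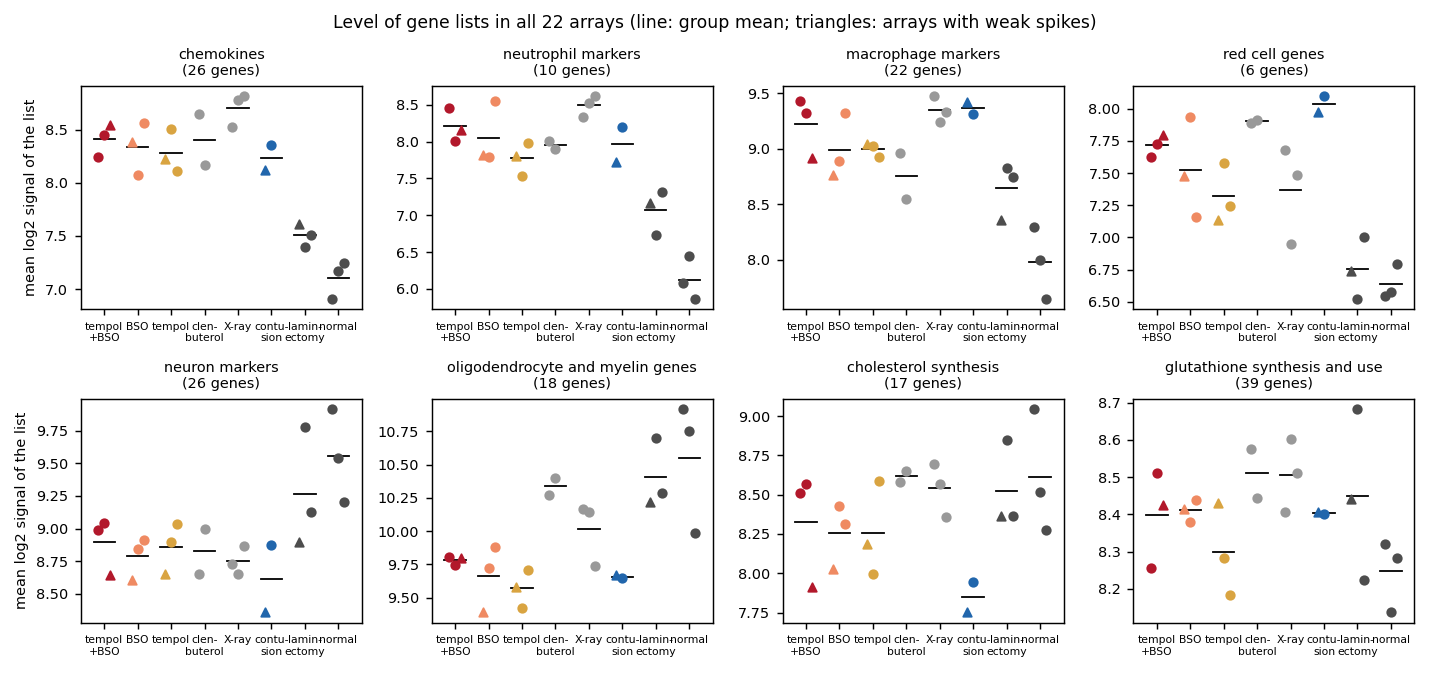
Mean log2 signal of 8 gene lists in each of the 22 arrays, by group, with a line at the group mean and triangles for the 5 arrays with weak spikes. For chemokines and myelin genes the tempol plus BSO mean lies nearer to contusion than to laminectomy. Chemokines average 8.41 with tempol plus BSO, against 8.23 in contusion and 7.51 after laminectomy. Myelin genes average 9.78 with tempol plus BSO, against 9.66 in contusion and 10.40 after laminectomy. The 2 clenbuterol arrays, also of contused cord, lie at 10.27 and 10.40 for myelin genes.

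Across all 39 lists 650 of 734 genes were measured, and 19 of the 650 had an unadjusted p under 0.05, against 3.56% of 14217 genes. None had an adjusted p under 0.05 in limma. Besides those already named they include Sesn1 and Tp53inp1, targets of p53, on opposite sides (1.99 ± 0.69 and -1.67 ± 0.62), and the other Sesn1 probe set differed by -0.74. Mcm3, a subunit of the replication helicase, had 292, 307 and 264 with tempol plus BSO, against 84.4 and 120 in contusion (1.51 ± 0.70). Egr4, an immediate early factor, had 51.0, 75.6 and 168 with tempol plus BSO, against 343 and 189 in contusion (-1.56 ± 0.69), while its other probe set differed by 0.49. Cldn5, the tight junction protein of the blood-brain barrier, differed by 1.26 ± 0.53, and Car9, a carbonic anhydrase induced by low oxygen, by 1.37 ± 0.65. The median differences of the lists lay between -0.32 for the metallothionein list of 4 genes and 0.43 for cholesterol synthesis. They included 0.06 for 25 genes of oxidative phosphorylation, -0.13 for 24 genes of the unfolded protein and integrated stress response, 0.14 for 15 heat shock proteins and chaperones, and 0.07 for 23 genes of interferon response and antigen presentation. Leaving out each array in turn put these at -0.17 to 0.22, -0.21 to 0.02, 0.03 to 0.21 and -0.03 to 0.14, and the metallothionein list at -0.91 to 0.07. The median was -0.24 for 15 p53 and DNA damage genes (-0.57 to -0.08 without single arrays) and 0.36 for 14 complement genes, and the complement median was -0.02 without contusion 1, 0.07 without contusion 2 and 0.21 without tempol plus BSO 2.

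**Figure D5:**
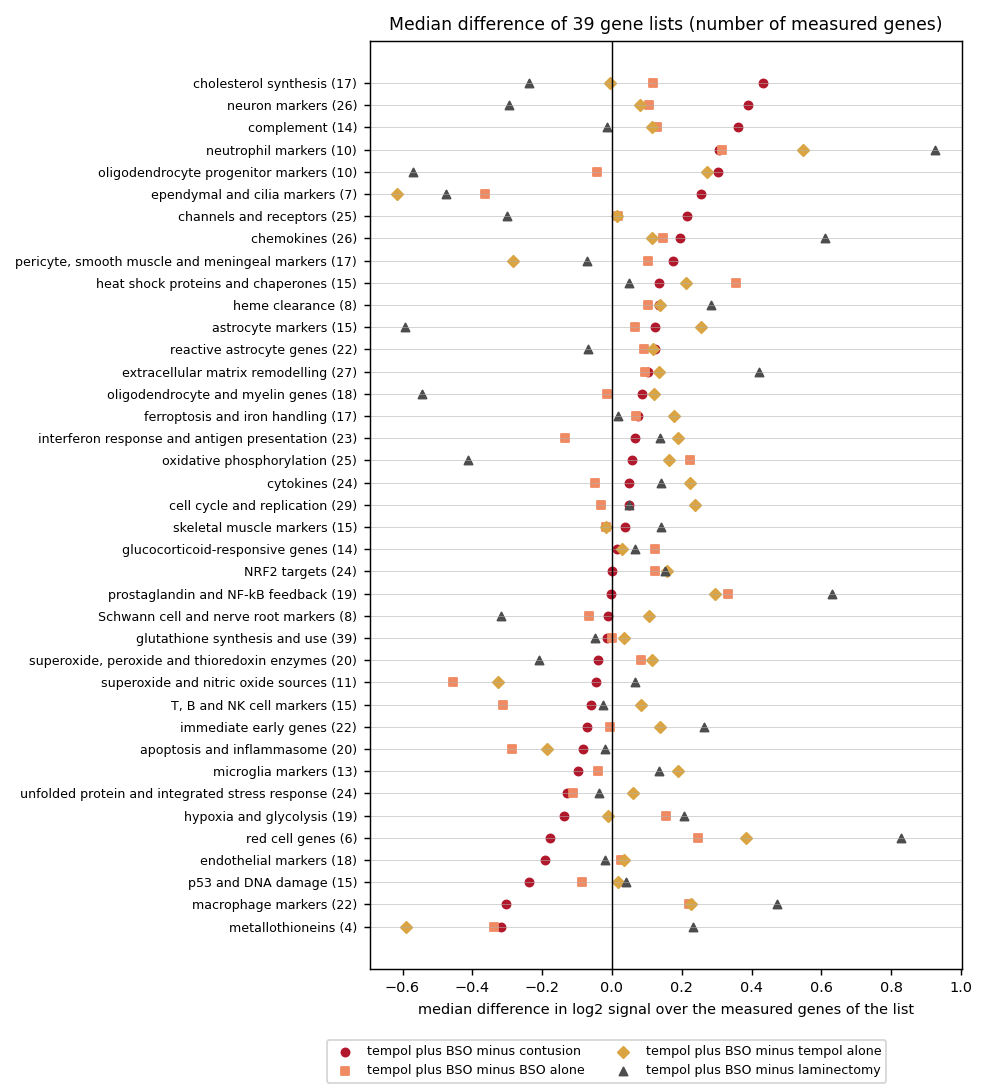
Median difference in log2 signal over the measured genes of 39 lists (rows, number of genes in brackets) for tempol plus BSO minus contusion, BSO alone, tempol alone and laminectomy (symbols). Against contusion the medians run from -0.32 to 0.43, and against laminectomy from -0.59 for astrocyte markers to 0.92 for neutrophil markers.

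Whether both drugs together differed from either drug alone was tested as differences that leave out the contusion arrays, which enter only the estimate of the spread. Tempol plus BSO minus BSO alone gave 0 probe sets past the threshold in limma (0% called), with 1283 at an unadjusted p under 0.05 (4.13%) and a smallest adjusted p of 0.409. That value was of Fbxo3, a ubiquitin ligase subunit. It had 203, 194 and 90.1 with tempol plus BSO, against 22.2, 28.5 and 25.8 with BSO alone, without overlap (2.59 ± 0.44). Grin2d, an NMDA receptor subunit, had 129, 52.1 and 28.0 with tempol plus BSO, against 8.4, 9.8 and 9.3 with BSO alone (2.65 ± 0.49, adjusted p = 0.559 in limma). Msto1, a regulator of mitochondrial shape, had 15.2, 13.7 and 25.1 with tempol plus BSO, against 123, 161 and 86.9 with BSO alone (-2.79 ± 0.61, adjusted p = 0.895 in limma).

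Tempol plus BSO minus tempol alone also gave 0 (0% called), with 1407 at an unadjusted p under 0.05 in limma (4.53%) and a smallest adjusted p of 0.783. Rasa3, a brake on Ras signalling, had 21.9, 18.3 and 41.7 with tempol plus BSO, against 357, 213 and 204 with tempol alone (-3.28 ± 0.65). Avil, an actin-binding protein of sensory neurons, had 145, 137 and 82.6 with tempol plus BSO, against 8.3, 10.1 and 38.7 with tempol alone (3.00 ± 0.66). Acer3, a ceramidase, had 265, 227 and 286 with tempol plus BSO, against 72.5, 78.2 and 94.2 with tempol alone (1.67 ± 0.37). Gclc differed by -0.11 ± 0.48 from BSO alone and by -0.09 ± 0.48 from tempol alone, and Hmox1 by 0.07 ± 0.41 and 0.28 ± 0.41.

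The departure of the combination from the sum of the separate drugs, tempol plus BSO minus BSO alone less the difference of tempol alone minus contusion, had the widest error. It gave 0 probe sets in limma (0% called) and 1068 at an unadjusted p under 0.05 (3.44%), with a median standard error of 1.01. Fbxo3 again had the smallest p, with a departure of 3.82 ± 0.66 (adjusted p = 0.496 in limma): its signals were 59.6, 53 and 69.7 with tempol alone and 135 and 150 in contusion, so that each drug alone lay low and both together did not. Herpud1, a protein of endoplasmic reticulum quality control, had 131, 144 and 62.5 with tempol plus BSO, 36.5, 18.1 and 32.5 with BSO alone, and 51.4, 42.6 and 59.4 with tempol alone, against 123 and 135 in contusion. Its departure was 3.27 ± 0.68 (adjusted p = 1 in limma).

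Against laminectomized cord, chemokine signals were higher and myelin signals lower with tempol plus BSO, although no probe set passed there either. The labels of the laminectomy arrays give no time of collection, so the groups may differ in time after surgery. The count of passing probe sets was 0 in limma (0% called), and the smallest adjusted p was 0.204. There were 1899 at an unadjusted p under 0.05 (6.12%), 1062 higher and 837 lower. Laminectomy 2 had the lowest median correlation with other arrays in the series (0.667). Without it 1492 (4.81%) had an unadjusted p under 0.05 in limma, and 2545 (8.2%) did without laminectomy 1. Ccl2 had 2875, 4025 and 2284 with tempol plus BSO, against 339, 503 and 128 after laminectomy (3.41 ± 0.62, adjusted p = 0.220 in limma). Ccr1, a receptor for monocyte-attracting chemokines, had 201, 134 and 154 with tempol plus BSO, against 6.4, 8.1 and 10.6 after laminectomy (4.29 ± 0.82). Ugt8 had 371, 416 and 295 with tempol plus BSO, against 1110, 1442 and 1270 after laminectomy (-1.83 ± 0.36). The arrays were fully apart in all 3 genes, but these were picked among the smallest p-values of this comparison. Of all 31042 probe sets, the tempol plus BSO arrays lay fully above laminectomy in 1551 and fully below in 1408.

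By list, 22 of 26 chemokines, 9 of 10 neutrophil markers and 17 of 22 macrophage markers were higher with tempol plus BSO than after laminectomy (medians 0.61, 0.92 and 0.47). Only 2 of 18 myelin genes, 1 of 10 progenitor markers, 6 of 26 neuron markers and 5 of 25 oxidative phosphorylation genes were higher (medians -0.55, -0.57, -0.30 and -0.41). Untreated contusion minus laminectomy, which shares the laminectomy arrays, had medians of 0.67 for chemokines, 0.64 for neutrophil markers, 0.63 for macrophage markers, -0.72 for myelin genes, -0.80 for progenitor markers and -0.58 for neuron markers. Hmox1 was higher by 1.68 ± 0.41 with tempol plus BSO than after laminectomy (adjusted p = 0.391 in limma) and Hbb by 2.56 ± 0.58 (adjusted p = 0.332 in limma), while Gclc differed by -0.05 ± 0.48.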

How the data were processed

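The deposited table holds 1 signal intensity for each of 31099 probe sets on each of 22 arrays, with 1 decimal. The submitters' processing notes name RMA, but the deposited intensities are linear (0.3 to 154527.2) and not quantile normalized; the labels do not say how the authors scaled them. The signals were taken to log2 without further scaling, and 57 controls, which hold the only 2 empty cells, were left out. Symbols came from the platform annotation, updated through Entrez numbers for 20758 probe sets: 20826 probe sets had 1 symbol, 436 several and 9780 none. Only those with 1 symbol were named.

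limma 3.58.1 in R 4.3.3 fitted 8 group means to all 22 arrays with eBayes (14 residual and 4.71 prior degrees of freedom), two-sided, with Benjamini-Hochberg adjustment over the 31042 tested probe sets and a threshold of 0.05. The fit was tested on simulated data. A gene in a list was represented by its brightest probe set (14217 genes). The probe sets of smallest p needed a group mean signal of 64 and arrays of the 2 groups that did not overlap, with 15 genes per direction; further named genes were up to 4 per list by p, and 27 genes chosen by function. Genes beyond that rule were named after their values were seen. The members and lists were chosen with earlier results of these data known. No array was left out. Spike arrays were set apart after the data were seen, at a mean log2 spike signal of 11.5. Figures were drawn with matplotlib 3.10.9. Signals are not molecule counts, and the number of arrays limits the precision.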

Additional observations from a re-analysis of the deposited data

How the results depend on the processing

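The count of 0 probe sets for tempol plus BSO minus contusion held in limma under quantile normalization, a low signal filter, trend and robust eBayes, a fit of only the groups compared, log2 of signal plus 32, a fit without laminectomy 2 and normal 1, and a block of the weak-spike arrays (added after the data were seen). Leaving out each array in turn gave 0 to 1 calls here (the 1, an unnamed probe set with an adjusted p of 0.00285 in limma, without contusion 1) and 1087 to 1889 unadjusted ones, the most without tempol plus BSO 3. It also gave 0 to 1 calls for tempol plus BSO minus BSO alone (1 without tempol plus BSO 2, Cinp at an adjusted p of 0.0451, and 1 without BSO 3) and minus tempol alone (1 without tempol 2, and Upk3bl1 at 0.0436 without tempol plus BSO 3), and 0 for the interaction and minus laminectomy. A group left with 1 array is assumed to vary like the others. Tempol plus BSO minus laminectomy gave 1 call under trend and robust eBayes, a probe set of several symbols (adjusted p = 0.0496 in limma). The smallest adjusted p of that comparison was 0.0624 to 0.580 under its other alternatives. The deviations of same-numbered arrays from their group means correlated at -0.07 and 0.05 between tempol plus BSO and contusion. With 2 contusion arrays these deviations mirror each other, so the check cannot decide whether the numbers pair arrays. The replicate block gave 0 calls in limma, with 1318 at an unadjusted p under 0.05. Of the 27 genes chosen by function 6 kept their direction under all 15 alternatives, and 7 of 39 list medians kept their sign under all. The number of arrays limits the precision.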

Other observations

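The median differences of the ependymal list and of the Schwann cell and nerve root list changed sign when single arrays were left out. Of 7 ependymal and cilia markers 5 were higher with tempol plus BSO (median 0.26), but the 2 of smallest p differed in opposite directions. Tmem212, a membrane protein of ciliated cells, had signals of 177, 127 and 181 with tempol plus BSO, against 1394 and 478 in contusion (-2.35 ± 0.78, unadjusted p = 0.00686, adjusted p = 1 in limma), while its other probe set differed by 0.94. Drc12, of the ciliary dynein regulatory complex, had 91.2, 370 and 155 with tempol plus BSO, against 58.7 and 35.4 in contusion (1.93 ± 0.96). The list median was 1.09 within the weak-spike arrays and -0.65 within the others, and it was -0.69 without contusion 1, 0.81 without contusion 2 and -0.13 without tempol plus BSO 3. Of 8 Schwann cell and nerve root markers 4 were higher (median -0.01), and Prx, the periaxin of peripheral myelin, had 30, 35.4 and 102 with tempol plus BSO, against 134 and 198 in contusion (-1.77 ± 1.15).

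Skeletal muscle markers, a check on tissue taken with the cord, had a mean log2 signal of 6.84, 6.49 and 6.39 with tempol plus BSO, against 6.41 and 6.52 in contusion, over 15 genes of which 9 were higher. Myh1, a myosin heavy chain of fast muscle, was the brightest, with 3821, 6651 and 1547 with tempol plus BSO, against 859 and 4178 in contusion (0.84 ± 0.88), while Acta1, skeletal actin, stood at 16.8, 17.8 and 23.7 with tempol plus BSO, against 19.6 and 21.8 in contusion. The part of any of these cells in the results was not tested.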
